A study of Mus musculus with 28 samples.

Results

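The regions described here are narrow sites of trimethylated lysine 4 of histone H3 (H3K4me3) that carried no called peak of histone acetylation in mouse fibroblasts. A site belonged to the set when its H3K4me3 peak was under 4000 bp wide and was not overlapped, by 1 bp or more, by any peak of acetylated lysine 9 (H3K9ac) or lysine 27 (H3K27ac) of the same histone. Of 32099 H3K4me3 peaks, 17930 met the rule (55.9%), and they are called K4-only peaks below. The other peaks were 12396 of under 4000 bp with an acetylation peak, called K4-acetylated, and 1773 of 4000 bp or more, called broad.

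The study mapped subunits of the nucleosome remodelling and deacetylase complex (NuRD), the histone variant H3.3 and 3 histone marks by chromatin immunoprecipitation sequencing (ChIP-seq) in NIH/3T3 Tet-On 3G cells, a line derived from mouse embryonic fibroblasts. H3.3 knockdown cells carried OFP-H3.3A and GFP-H3.3B constructs, and their controls carried GFP-Luciferase and OFP-Luciferase constructs. RNA of 3 knockdown clones and 2 control clones was sequenced, and RBBP4 and MTA1 were mapped once in knockdown cells and once in control cells. Each RNA library is 1 clone of a transduced line grown, per the labels, with doxycycline, so the spread between libraries includes the differences between clones. CHD4, HDAC1, HDAC2, MBD2/3, MTA1, RBBP4, H3K4me3, H3K9ac and H3K27ac came from untransduced cells, with 1 library each and therefore no replicate check. H3.3 was read through an HA tag in 2 replicates of cells that carried an HA/FLAG-H3.3 construct and were grown with doxycycline and aphidicolin, a DNA polymerase inhibitor, so the values are those of a tagged, induced protein in cells held from replicating. The same construct, induced with doxycycline alone, served for 1 sequential immunoprecipitation of FLAG-H3.3 followed by RBBP4.

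H3K4me3 is deposited by SET1 and MLL methyltransferases and is best known from the first nucleosomes of active and poised genes. H3K9ac and H3K27ac are added by acetyltransferases at active promoters and enhancers, and NuRD removes acetyl groups through HDAC1 and HDAC2, remodels nucleosomes through CHD4, and holds the histone-binding protein RBBP4, the scaffold MTA1 and the methyl-CpG-binding-domain protein MBD2 or MBD3. RBBP4 also belongs to other complexes, among them PRC2, SIN3 and CAF-1, so its signal alone does not identify NuRD. H3.3 is put into chromatin outside replication, at active genes, enhancers and heterochromatic repeats.

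Promoters of 8 genes whose 5′ end lies within 1000 bp of a K4-only peak are printed because they belong to genes described below and show how far base composition differs between such sites. Of the 8, 7 have a ratio of observed to expected CG above the median of promoters of genes with either end at a K4-only peak. They come from RefSeq on GRCm38.p6, run 5′ to 3′ from 250 bases before to 50 bases after the annotated start, and show every CG dinucleotide in capitals. The peaks themselves are on mm9, and no sequence was read from peak coordinates. On GRCm38.p6 the 8 stretches are chr17:37269984-37270283 (H2-M3, plus strand), chr7:100227357-100227656 (Pgm2l1, plus strand), chr9:55540899-55541198 (Isl2, plus strand), chr9:70421505-70421804 (Ccnb2, minus strand), chr3:37348403-37348702 (Fgf2, plus strand), chr4:68954348-68954647 (Brinp1, minus strand), chr13:4150597-4150896 (Akr1c18, minus strand) and chr9:51009024-51009323 (Sik2, minus strand).
H2-M3: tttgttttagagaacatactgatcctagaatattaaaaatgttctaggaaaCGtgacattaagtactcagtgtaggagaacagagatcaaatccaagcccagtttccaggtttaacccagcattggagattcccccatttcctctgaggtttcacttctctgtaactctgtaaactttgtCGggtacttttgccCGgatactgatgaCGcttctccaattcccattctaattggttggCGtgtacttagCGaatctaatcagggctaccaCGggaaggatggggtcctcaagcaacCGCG
Pgm2l1: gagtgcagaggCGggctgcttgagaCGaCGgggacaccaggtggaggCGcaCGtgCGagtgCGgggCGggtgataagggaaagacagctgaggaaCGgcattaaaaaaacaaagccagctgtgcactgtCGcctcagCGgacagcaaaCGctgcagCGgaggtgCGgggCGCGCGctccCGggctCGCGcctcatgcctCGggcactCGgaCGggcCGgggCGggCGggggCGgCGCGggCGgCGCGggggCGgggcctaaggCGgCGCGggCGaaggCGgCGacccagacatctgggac
Isl2: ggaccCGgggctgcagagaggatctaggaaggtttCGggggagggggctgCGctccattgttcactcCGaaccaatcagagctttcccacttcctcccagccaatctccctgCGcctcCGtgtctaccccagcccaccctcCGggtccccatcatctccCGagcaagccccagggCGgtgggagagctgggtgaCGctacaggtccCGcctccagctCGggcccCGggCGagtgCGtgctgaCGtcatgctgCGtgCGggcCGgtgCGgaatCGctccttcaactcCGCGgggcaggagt
Ccnb2: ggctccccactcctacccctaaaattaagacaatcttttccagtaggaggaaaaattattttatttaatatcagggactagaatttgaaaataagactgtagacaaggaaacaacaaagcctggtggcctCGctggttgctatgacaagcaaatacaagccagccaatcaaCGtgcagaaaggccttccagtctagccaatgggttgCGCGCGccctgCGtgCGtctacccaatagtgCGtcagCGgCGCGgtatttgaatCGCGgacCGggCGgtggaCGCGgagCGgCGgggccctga
Fgf2: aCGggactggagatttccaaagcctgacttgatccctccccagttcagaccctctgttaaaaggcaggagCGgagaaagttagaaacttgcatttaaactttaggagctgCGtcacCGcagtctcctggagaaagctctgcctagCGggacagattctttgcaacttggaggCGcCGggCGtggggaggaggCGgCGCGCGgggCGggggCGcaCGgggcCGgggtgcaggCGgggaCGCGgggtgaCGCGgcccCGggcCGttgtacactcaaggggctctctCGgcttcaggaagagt
Brinp1: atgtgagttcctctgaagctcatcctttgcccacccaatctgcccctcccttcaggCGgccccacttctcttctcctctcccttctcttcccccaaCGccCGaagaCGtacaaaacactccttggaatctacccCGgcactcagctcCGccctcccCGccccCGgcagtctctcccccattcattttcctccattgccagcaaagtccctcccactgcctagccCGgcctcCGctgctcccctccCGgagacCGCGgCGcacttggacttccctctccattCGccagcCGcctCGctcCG
Akr1c18: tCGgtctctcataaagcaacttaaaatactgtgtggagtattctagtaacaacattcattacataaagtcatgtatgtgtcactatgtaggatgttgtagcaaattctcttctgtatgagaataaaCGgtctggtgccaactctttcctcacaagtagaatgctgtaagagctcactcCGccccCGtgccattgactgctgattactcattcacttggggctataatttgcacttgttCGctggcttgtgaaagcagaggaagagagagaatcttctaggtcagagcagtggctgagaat
Sik2: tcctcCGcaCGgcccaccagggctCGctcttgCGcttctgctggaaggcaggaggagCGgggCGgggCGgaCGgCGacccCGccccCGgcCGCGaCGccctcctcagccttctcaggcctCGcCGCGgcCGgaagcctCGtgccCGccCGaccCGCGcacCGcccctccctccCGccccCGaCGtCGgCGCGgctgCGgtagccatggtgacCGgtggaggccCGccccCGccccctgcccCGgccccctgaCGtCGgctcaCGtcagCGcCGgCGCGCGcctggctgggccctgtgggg

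The 8 stretches held from 5 CG dinucleotides, in Akr1c18, to 43, in Sik2. The ratio of observed to expected CG, which is near or above 0.6 in CpG islands, was 0.37 in Akr1c18, 0.62 in H2-M3, 0.68 in Isl2, 0.79 in Brinp1, 0.84 in Fgf2, 0.91 in Sik2, 0.95 in Ccnb2 and 1.06 in Pgm2l1. Genes with either end within 1000 bp of a K4-only peak matched 1294 promoters of the RefSeq table. Of these 1294, 576 had a ratio of at least 0.6 (44.5%), with a median ratio of 0.546. The same share was 77.9% of 7257 promoters of genes at K4-acetylated peaks, 18.8% of 8090 promoters of genes at no H3K4me3 peak, and 36.5% of all 27025 promoters in the table. Part of the K4-only set also had an acetylated or broad peak, and for genes at a K4-only peak and no other H3K4me3 peak the share was 365 of 1005 (36.3%, median ratio 0.464), close to that of all promoters. Where the 5′ end itself, by RefSeq strand, lay at a K4-only peak, the share was 45.5% of 1024 promoters. With no other H3K4me3 peak it was 38.5% of 820. The selection of the peaks did not use this measure. On it, promoters of genes at K4-only peaks lay between those of genes at acetylated peaks and those of genes at none.

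Short motifs were counted on both strands of the same 300-base stretches, as a description of letters and not of binding. The GC box GGGCGG, which reads CCGCCC on the other strand, stood in 47.4% of promoters of genes at K4-only peaks, in 67.0% at K4-acetylated peaks and in 35.9% of all promoters. CCGGAAG, the core bound by ETS factors, stood in 7.57%, 21.8% and 9.14% of the same 3 sets. TATAAA stood in 11.4% at K4-only peaks, against 6.13% at K4-acetylated peaks and 14.2% of all promoters. CCAAT stood in 45.1% at K4-only peaks, against 39.6% at K4-acetylated peaks and 38.0% of all promoters, and was the one motif of the 6 searched with a higher share at K4-only peaks than in both other sets. TGACGTCA, the cyclic AMP response element, stood in 2.63%, 3.73% and 1.85%, and CACGTG, the E-box, in 8.04%, 10.8% and 7.24%. Among the printed promoters, Ccnb2, which encodes the mitotic cyclin B2, held CCAAT and the GC box, and Isl2, which encodes a motor neuron homeodomain factor, held CCAAT, the GC box and TGACGTCA.

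The members were chosen by the width of their H3K4me3 peaks and by the absence of H3K9ac and H3K27ac peaks, and the values of these marks are given here as a description. The median width was 886 bp for K4-only peaks, against 2237 bp for K4-acetylated peaks, and the median score was 128 against 3100. The score is the authors' deposited value per peak, ranges from 50.01 to 3223.52 among K4-only peaks, and stands at 3100 for many strong peaks, so it does not order them. Of the K4-only peaks, 38.6% scored under 100 and 793 (4.42%) scored 1000 or more, while 73.3% of K4-acetylated peaks scored 1000 or more. The widest K4-only peak, chr5:104055393-104059378 on mm9, was 3986 bp wide with a score of 1877.06, and the narrowest unacetylated peak outside the width limit was 4085 bp wide with a score of 2014.31. On the side of acetylation the limit was a matter of a few bases for some: 160 K4-only peaks (0.892%) lay within 100 bp of an acetylation peak and 5.61% within 1000 bp, whereas 69.2% lay within 100 kb. The levels of the same marks followed the rule, with a median of 2.21 RPKM of H3K4me3 in regions at K4-only peaks against 11.2 RPKM at K4-acetylated peaks, 0.918 against 2.44 RPKM of H3K9ac and 1.05 against 1.73 RPKM of H3K27ac.

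RBBP4 was the subunit most often found at K4-only peaks. A subunit was counted at an H3K4me3 peak when a deposited region that overlaps this peak held a peak of the subunit. The subunit's peak therefore need not overlap the H3K4me3 peak itself. An RBBP4 peak of untransduced cells was counted at 3719 of the 17930 (20.7%, 95% exact Clopper-Pearson interval 20.2% to 21.3%), against 78.7% of K4-acetylated and 94.9% of broad peaks. HDAC2 followed with 1390 K4-only peaks (7.75%, against 45.5% of K4-acetylated peaks), and HDAC1 with 538 (3.00%, against 24.1%). MTA1 was found at 368 (2.05%, against 10.7%), MBD2/3 at 213 (1.19%, against 10.7%) and the remodelling ATPase CHD4 at 205 (1.14%, against 8.42%). The order RBBP4, HDAC2, HDAC1, MTA1 was the same in the 3 classes of peaks, and every subunit was found less often at K4-only peaks than at K4-acetylated peaks. The intervals cover counting error over peaks only, and the libraries differ in antibody and in depth, from 6.62 M reads for HDAC2 to 11.0 M for MTA1, so the shares of different subunits do not give their amounts.

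Taken over the subunits, 4077 K4-only peaks (22.7%) carried a peak of at least 1 of them, and 152 (0.848%) carried peaks of 4 or more. RBBP4 stood with no other subunit at 2148 K4-only peaks (12.0%), more than were shared by RBBP4 and any other subunit, against 24.6% of K4-acetylated peaks and 11.3% of broad peaks. Per Mb of H3K4me3 peak the direction was the other way, with 121.1 such sites at K4-only peaks, 110.6 at K4-acetylated peaks and 21.6 at broad peaks. Most K4-only peaks therefore had no called NuRD peak in these libraries, and where they had one it was mostly RBBP4.

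HA-H3.3 peaks, counted by region in the same way, were found at K4-only peaks more often than RBBP4 peaks were. They were found at 28.4% of K4-only peaks in replicate 1 and 30.6% in replicate 2, against 73.7% and 76.4% of K4-acetylated peaks in the same replicates. Both replicates had a peak at 4729 K4-only peaks (26.4%), against 70.3% of K4-acetylated peaks. The variant and RBBP4 often, but not always, fell at the same K4-only peaks. HA-H3.3 peaks of both replicates were found at 2869 (77.1%) of the 3719 K4-only peaks with an RBBP4 peak. They were also found at 1860 (13.1%) of the 14211 without one. Both were scored over the deposited regions that overlap an H3K4me3 peak, so the 2 peaks need not overlap each other. At K4-acetylated peaks the 2 shares were 78.0% and 41.9%. Thus among peaks with RBBP4 the share with H3.3 was within 1 percentage point for K4-only and K4-acetylated peaks, and among peaks without RBBP4 it was lower for K4-only peaks.

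The strength of H3K4me3 differed between the classes, and the shares were therefore set side by side within ranges of score. RBBP4 peaks were found at 14.4% of K4-only peaks that scored under 100, at 18.3% of those from 100 to 200, at 25.7% from 200 to 500, at 32.1% from 500 to 1000 and at 47.8% of those of 1000 or more. K4-acetylated peaks of the same 5 ranges had RBBP4 at 61.0%, 63.5%, 65.2%, 65.7% and 83.9%. The share per peak thus climbed with score at K4-only peaks and stayed below that of acetylated peaks in every range. Peaks of higher score are also wider, and per Mb of H3K4me3 peak the K4-only peaks with RBBP4 numbered 206.6, 196.7, 213.2, 215.1 and 240.6 over the 5 ranges, against 780.1, 621.1, 493.6, 407.9 and 324.6 at K4-acetylated peaks. HDAC2 climbed from 4.88% in the lowest range to 21.1% in the highest at K4-only peaks, and from 28.7% to 50.4% at K4-acetylated peaks. HA-H3.3 in both replicates climbed from 20.3% to 44.6% at K4-only peaks, while at K4-acetylated peaks it was 68.7% in the lowest and 69.6% in the highest range. Per Mb the order turned round for HA-H3.3 at K4-only peaks, with 291.5 in the lowest range and 224.7 in the highest.

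**Figure D1:**
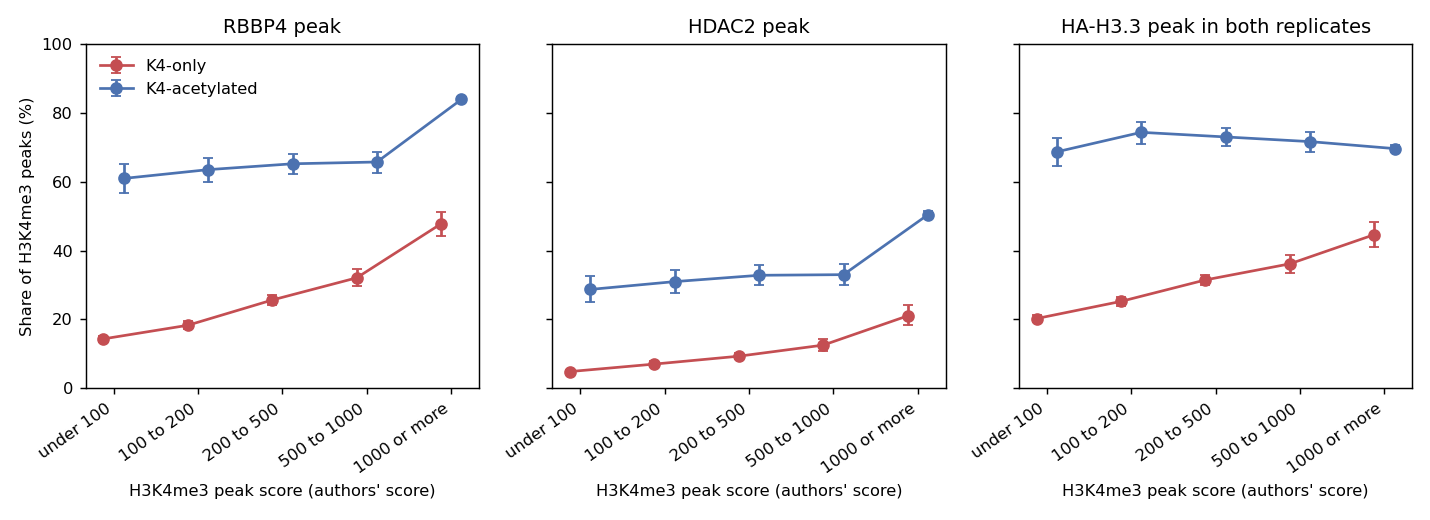
Share of H3K4me3 peaks in percent (vertical axis) that carry an RBBP4 peak, an HDAC2 peak or HA-H3.3 peaks of both replicates, by range of the authors' H3K4me3 score (horizontal axis), for K4-only peaks (red) and K4-acetylated peaks (blue); bars are 95% exact binomial intervals over peaks. K4-only peaks sit below K4-acetylated peaks in each range and their share per peak climbs with score, for RBBP4 from 14.4% to 47.8%, while per Mb of peak the RBBP4 sites number 206.6 and 240.6 in the lowest and highest range.

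The classes also differed in width. RBBP4 was found at 15.8% of K4-only peaks under 1000 bp, at 27.6% of those from 1000 to under 2000 bp and at 39.4% of those of 2000 bp or more, against 61.0%, 66.9% and 87.4% of K4-acetylated peaks of the same widths. Per peak, wider peaks had RBBP4 more often in both classes. Per Mb the order was the opposite, with 216.8, 210.9 and 160.4 at K4-only peaks and 779.8, 436.5 and 311.5 at K4-acetylated peaks. The gap between the classes was present in each range of width on both scales.

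Levels could be read at fewer sites, because the deposited table of levels covers only regions with a peak of at least 1 of the 6 subunits or of HA-H3.3. A region of that table overlapped 6587 K4-only peaks (36.7%), 91.4% of K4-acetylated and 99.2% of broad peaks, so the medians that follow describe the K4-only peaks that already had some such peak. RBBP4 had a median of 2.33 RPKM at K4-only peaks, 3.34 RPKM at K4-acetylated peaks and 1.2 RPKM in regions without an H3K4me3 peak. HDAC2 had medians of 1.69, 2.52 and 1.02 RPKM in the same order, and HDAC1 of 1.32, 1.90 and 0.924 RPKM. For MTA1 they were 1.16, 1.42 and 0.881 RPKM, for CHD4 1.13, 1.43 and 0.875 RPKM, and for MBD2/3 1.09, 1.40 and 0.872 RPKM. For each subunit the K4-only median lay between that of acetylated peaks and that of regions without H3K4me3. On the log2(RPKM + 1) scale the differences of medians between K4-only and K4-acetylated peaks ran from -0.39 for RBBP4 and for HDAC2 to -0.16 for MTA1. Among peaks with scores between the K4-only quartiles the differences were smaller, at -0.23 for RBBP4, -0.19 for HDAC2, -0.14 for HDAC1 and -0.13 for MTA1. The quartile ranges of the 2 classes overlapped for each subunit, and with 1 library per subunit there is no test of these differences.

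**Figure D2:**
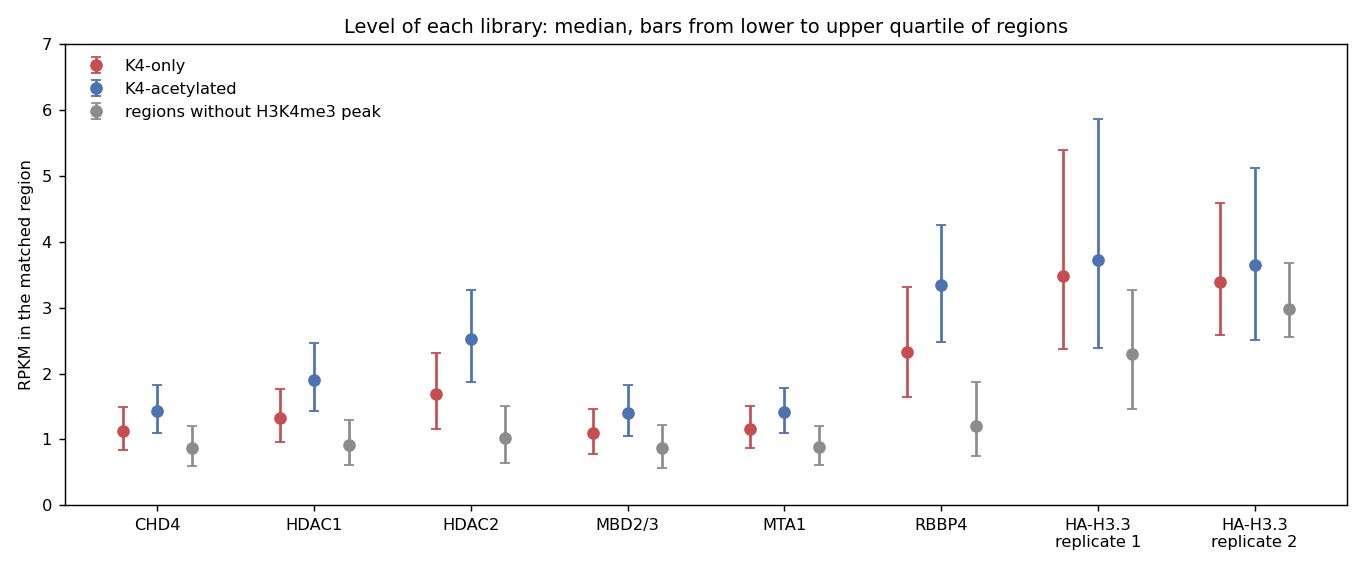
Level of each library in RPKM (vertical axis) in the deposited regions matched to K4-only peaks (red), K4-acetylated peaks (blue) and regions without an H3K4me3 peak (grey); points are medians over regions and bars run from the lower to the upper quartile. For RBBP4 the medians are 2.33, 3.34 and 1.2 RPKM, and the quartile ranges of the first 2 sets overlap.

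HA-H3.3 levels followed a different course. Over all matched regions the medians were 3.48 RPKM at K4-only peaks against 3.73 RPKM at K4-acetylated peaks in replicate 1, and 3.39 against 3.64 RPKM in replicate 2, a difference of -0.08 on the log2(RPKM + 1) scale in each replicate. Within ranges of H3K4me3 score the gap was wider below 1000: from 200 to 500, for example, replicate 1 gave 3.65 RPKM at K4-only peaks against 5.21 RPKM at K4-acetylated peaks, and replicate 2 gave 3.46 against 4.59 RPKM. The 4 ranges under 1000 gave differences from -0.48 to -0.42 in replicate 1 and from -0.41 to -0.33 in replicate 2, and the range of 1000 or more gave -0.12 and -0.16. In both replicates the acetylated peaks of the highest scores, which make up most of that class, had the lower HA-H3.3 levels, 3.37 and 3.35 RPKM. H3K4me3 itself differed little between the classes in the ranges under 1000, by 0.05 to 0.17 on the same scale, since the score had been held.

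RBBP4 and MTA1 were each mapped once in H3.3 knockdown cells and once in control cells. Peaks of these 4 lists were counted where they overlap an H3K4me3 peak by 1 bp or more. That is a narrower count than the one by region used for untransduced cells, so the shares are not comparable with those above. The classes of H3K4me3 peaks themselves come from marks of untransduced cells. RBBP4 peaks of knockdown cells overlapped 97 K4-only peaks (0.541%, interval 0.439% to 0.660%), and RBBP4 peaks of control cells 143 (0.798%, interval 0.673% to 0.939%). Of these, 45 K4-only peaks carried a peak in both, 52 in knockdown cells only and 98 in control cells only. MTA1 peaks overlapped 76 K4-only peaks in knockdown cells (0.424%) and 71 in control cells (0.396%), with 17 in both, 59 in knockdown cells only and 54 in control cells only. K4-acetylated peaks carried RBBP4 at 10.6% in knockdown cells and 10.3% in control cells, and MTA1 at 2.46% in knockdown cells and 2.32% in control cells. The lists were called separately from libraries of unknown depth, and with 1 library per condition a peak in 1 list and not in the other is not a tested change.

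Read from the side of the lists, 108 of 2919 RBBP4 peaks of knockdown cells lay on K4-only peaks (3.70%), against 177 of 3561 in control cells (4.97%). For MTA1 the numbers were 76 of 904 in knockdown cells (8.41%) and 73 of 1703 in control cells (4.29%). The share on K4-only peaks was thus lower in knockdown than in control cells for RBBP4 and higher for MTA1, while the share on no H3K4me3 peak at all was lower in knockdown cells for both, 15.5% against 26.3% for RBBP4 and 39.9% against 63.9% for MTA1. Of the 143 K4-only peaks with RBBP4 in control cells, 91 also carried an RBBP4 peak in untransduced cells.

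The K4-only peaks with an RBBP4 peak in these lists were stronger than most. The 45 with RBBP4 in both knockdown and control cells had a median H3K4me3 score of 1405, the 52 with RBBP4 in knockdown cells only had 319, and the 98 with RBBP4 in control cells only had 683, against 128 over all K4-only peaks. Of the 97 with RBBP4 in knockdown cells, 44 lay within 1000 bp of a gene end (45.4%), and of the 143 with RBBP4 in control cells 63 did (44.1%). MTA1 sites were placed otherwise: 17.1% of the K4-only peaks with MTA1 in knockdown cells and 16.9% of those with MTA1 in control cells lay at a gene end, and 63.2% of those with MTA1 in knockdown cells and 63.4% of those with MTA1 in control cells lay outside genes and their ends.

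The sequential immunoprecipitation of FLAG-H3.3 and RBBP4 gave 6 peaks in all, of which 1 lay on a K4-only peak and 5 on K4-acetylated peaks. The 1 was at Fam64a, which encodes a mitotic protein, in the K4-only peak chr11:71854211-71857824 on mm9. This peak was 3614 bp wide, scored 3100, and carried RBBP4, HDAC1, HDAC2 and MTA1 peaks in untransduced cells, and HA-H3.3 peaks in both replicates of the construct-bearing cells. Its RBBP4 level was 9.49 RPKM from 133 reads (95% exact Poisson interval 7.95 to 11.2 RPKM) beside 3.88 RPKM of HDAC2, 4.14 RPKM of HDAC1, and 3.64 and 3.39 RPKM of HA-H3.3. Its RBBP4 peak scored 588.84 in the knockdown list and 184.53 in the control list.

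The 5 K4-only peaks of highest H3K4me3 score were looked at one by one. Their scores, from 3136.88 to 3223.52, lie just above the 3100 of many strong peaks and do not mark them as the strongest. The matched region of 524 bp near Ang had 2.93 RPKM of H3K4me3. That of 1558 bp at Fam64a, whose peak scored 3100, had 19.7 RPKM. The first, chr14:51702035-51704465, lay 6286 bp from Ang, which encodes the ribonuclease angiogenin, and carried no RBBP4 or MTA1 peak in knockdown or control cells. RBBP4 there was 1.48 RPKM from 7 reads (0.597 to 3.06 RPKM), and HA-H3.3 was 2.11 and 2.70 RPKM. Each value was below the K4-only median, but the intervals of RBBP4 and of HA-H3.3 replicate 2 (1.76 to 3.96 RPKM) include it. The second, chr1:167932984-167934321 at Pou2f1, the gene of the octamer-binding factor OCT1, had 9.44 RPKM of RBBP4 from 71 reads (7.37 to 11.9 RPKM), 6.32 RPKM of HDAC2 and 4.96 RPKM of HDAC1. HA-H3.3 at Pou2f1 was 1.41 RPKM in replicate 1 and 2.34 RPKM in replicate 2, below the K4-only medians in both. Its RBBP4 peak scored 263.29 in knockdown cells and 89.97 in control cells.

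The third, chr17:37406448-37408413, covered the start of H2-M3, a class Ib histocompatibility gene whose product presents formylated peptides. RBBP4 there was 4.57 RPKM from 35 reads (3.18 to 6.35 RPKM) and HDAC2 3.90 RPKM, and HA-H3.3 was 0.779 and 1.47 RPKM. The fourth, chr6:136480525-136483380, lay inside Atf7ip, which encodes a partner of the methyltransferase SETDB1, with 3.80 RPKM of RBBP4 and 3.91 and 2.76 RPKM of HA-H3.3. The fifth, chr7:107375168-107377160, covered the start of Pgm2l1, which encodes glucose-1,6-bisphosphate synthase, with 4.45 RPKM of RBBP4 from 15 reads (2.49 to 7.33 RPKM) and, from 4 and 7 reads, 0.786 RPKM (0.214 to 2.01 RPKM) and 1.02 RPKM (0.409 to 2.09 RPKM) of HA-H3.3. Of the 5, the 3 at gene ends (Pou2f1, H2-M3 and Pgm2l1) thus had RBBP4 above and HA-H3.3 below the K4-only medians. The one near Ang had both values below, with intervals of RBBP4 and of HA-H3.3 replicate 2 that include the medians. The one inside Atf7ip had RBBP4 above. Its HA-H3.3 intervals, 2.88 to 5.18 and 2.02 to 3.69 RPKM, include the medians in both replicates, so its side is not resolved.

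The K4-only peak with the highest RBBP4 score in both lists was at the start of Pmp22, the gene of peripheral myelin protein 22. It spans chr11:62943846-62947244, 3399 bp, and scored 3100 for H3K4me3. Its RBBP4 peak scored 735.89 in knockdown cells and 3100 in control cells, and its MTA1 peak 52.76 in knockdown cells and 738.09 in control cells. Scores of lists called separately rank peaks within a list and measure no change between lists. In untransduced cells the region had 5.16 RPKM of RBBP4 from 384 reads (4.66 to 5.71 RPKM), 3.76 RPKM of HDAC2, 2.79 RPKM of HDAC1. In cells with the tagged construct HA-H3.3 was 7.25 and 7.37 RPKM there, above its K4-only medians. Cyp26b1, which encodes a retinoic acid hydroxylase, held a K4-only peak inside the gene at chr6:84537071-84539833 with RBBP4 scores of 101.4 in knockdown cells and 576 in control cells. Tmem158 held a peak at chr9:123168316-123170609 with RBBP4 scores of 427.13 in knockdown cells and 396.9 in control cells, and MTA1 scores of 96.31 in knockdown cells and 74.81 in control cells. Ska1, which encodes a kinetochore subunit, had RBBP4 scores of 289.57 in knockdown cells and 124.12 in control cells.

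Peaks in all 4 lists, those of RBBP4 and MTA1 in knockdown and in control cells, were found at 9 K4-only peaks. Of these, 2 lay at a gene end (Pmp22 and Tmem158), 2 inside genes (Cdk8 and Filip1l) and 5 further away, nearest to Rpp21, Axin2, Gm8579, Pex2 and Ddx18 at distances from 23698 to 789084 bp. The 7 that were not at a gene end were 385 to 1027 bp wide and had low H3K4me3 scores, from 63.88 to 472.35. Their H3K4me3 levels were not low: the matched regions had 5.45 to 15.8 RPKM, against a K4-only median of 2.21 RPKM. At some of them the levels of NuRD subunits were among the highest of all K4-only peaks. At chr11:108872571-108873597, 60475 bp from Axin2, HDAC2 was 38.5 RPKM from 235 reads (33.8 to 43.8 RPKM), RBBP4 23.8 RPKM, HDAC1 19.4 RPKM, MBD2/3 18.6 RPKM, CHD4 15.7 RPKM and MTA1 14.9 RPKM, and HA-H3.3 was 24.0 and 21.6 RPKM. At chr5:147072203-147073198, inside the gene of the Mediator kinase Cdk8, HDAC2 was 30.4 RPKM and RBBP4 21.4 RPKM. All 6 subunits were thus far above their K4-only medians at the same places.

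The other libraries were raised at those places too. H3K9ac was 3.26 RPKM at the Axin2 site and 3.38 RPKM at the Cdk8 site, against a K4-only median of 0.918 RPKM, and H3K27ac was 1.95 and 2.57 RPKM, against 1.05 RPKM, although neither mark had a called peak there. Inside Filip1l, at chr16:57391490-57392057, HDAC2 was 29.8 RPKM and RBBP4 16.7 RPKM, but HA-H3.3 was 3.21 and 3.60 RPKM, close to its K4-only medians. Inside Apool on the X chromosome, at chrX:109483996-109484963, RBBP4 reached 33.1 RPKM from 186 reads (28.5 to 38.2 RPKM), with 10.1 RPKM of H3K9ac and 11.0 RPKM of H3K27ac. Levels of the input libraries were not analysed here, and their part in these sites was not tested.

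K4-only peaks lay mostly away from the ends of genes. Within 1000 bp of an annotated gene end were 1718 of them (9.58%), against 64.1% of K4-acetylated and 89.2% of broad peaks. Inside genes were 5334 (29.7%, against 14.5% of K4-acetylated peaks), and 2756 lay over 100 kb from any gene (15.4%, against 2.54%). A 5′ end, by the strand RefSeq gives for the gene's symbol, was within 1000 bp of 1028 K4-only peaks (5.73%), against 51.3% of K4-acetylated peaks. The classes therefore differed in place as well as in acetylation.

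**Figure D3:**
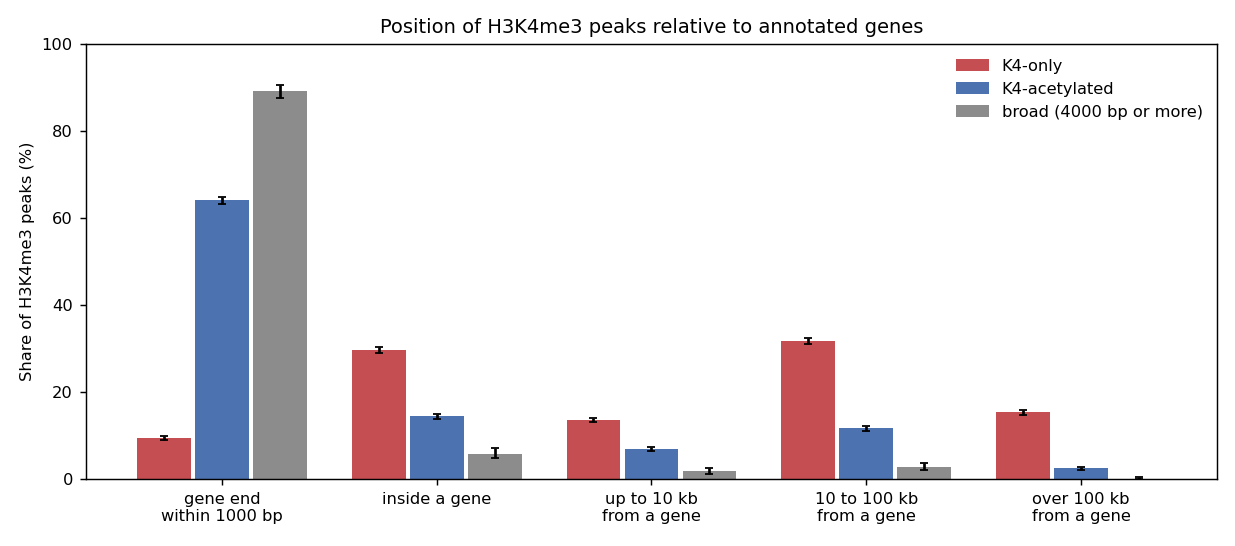
Share of H3K4me3 peaks in percent (vertical axis) by position relative to annotated genes (horizontal axis), for K4-only (red), K4-acetylated (blue) and broad (grey) peaks, with 95% exact binomial intervals over peaks. Gene ends hold 9.58% of K4-only, 64.1% of K4-acetylated and 89.2% of broad peaks, and K4-only peaks are the most frequent class inside genes and at distances over 10 kb.

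Position also depended on score. Of the 793 K4-only peaks of score 1000 or more, 364 lay at a gene end (45.9%), against 83.5% of K4-acetylated peaks of that range. In the range from 200 to 500 the shares were 10.3% and 10.0%, and under 100 they were 5.31% and 5.89%. From 100 to 200 they were 6.57% and 8.64%, and from 500 to 1000 they were 19.0% and 16.9%. At gene ends the 4 ranges under 1000 thus gave small differences in either direction, while in the highest range the share was lower for K4-only peaks. Outside genes and their ends the share was higher for K4-only peaks in every range. It was 63.4% against 51.0% under 100, 60.2% against 53.2% from 200 to 500, 54.4% against 50.7% from 500 to 1000, and 36.6% against 10.3% at 1000 or more. K4-only peaks with an RBBP4 peak lay outside genes and their ends in 53.3% of cases, against 62.6% of those without one.

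Expression was read from RNA as FPKM, a level normalised for transcript length and library size by the authors, averaged over the 2 control clones unless stated. The 1747 genes with an end within 1000 bp of a K4-only peak had a median of 0.954 FPKM, and 49.3% were at 1 FPKM or more. Many of them also had an acetylated or broad peak: the 1370 at a K4-only peak alone had a median of 0.530 FPKM, with 40.1% at 1 FPKM or more. Genes at K4-acetylated peaks had a median of 12.0 FPKM with 90.0% at 1 FPKM or more, genes at no H3K4me3 peak 0.00282 FPKM with 8.81%, and all 23951 genes 0.707 FPKM with 48.2%. Genes at K4-only peaks were thus expressed at levels between those of genes at acetylated peaks and of genes without H3K4me3. In bulk RNA, fewer cells with a transcript and less of it per cell cannot be told apart.

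Strong K4-only peaks at 5′ ends went with more expression. The 244 genes whose 5′ end lay at a K4-only peak of score 1000 or more, with no other H3K4me3 peak, had a median of 2.88 FPKM, and 77.9% were at 1 FPKM or more, though only 18.0% were at 10 FPKM or more. Without the condition on score, 820 genes had a median of 1.03 FPKM and 50.6% were at 1 FPKM or more. Their promoters differed in base composition: a CG ratio of at least 0.6 was found in 47.0% of the 415 of these genes at 1 FPKM or more and in 29.9% of the 405 below. Genes at K4-only peaks with an RBBP4 peak in untransduced cells (529 genes) had a median of 2.70 FPKM, against 0.682 FPKM for those at K4-only peaks without one (1241 genes). For HA-H3.3 in both replicates the medians were 2.45 FPKM (565 genes) with it and 0.662 FPKM (1200 genes) without it, and for HDAC1 the 91 genes with it had 5.97 FPKM. A K4-only peak with a NuRD subunit or H3.3 thus stood at genes with a higher median FPKM than one without. The RNA was read in control clones, the subunits in untransduced cells and H3.3 in cells with the tagged construct. These sets include genes that also had an acetylated or broad peak, 377 of the 1747 at K4-only peaks. K4-only peaks with RBBP4 also had a higher median H3K4me3 score than those without (194 against 118). They lay more often at a gene end (13.3% against 8.61%), and the part of these differences was not tested.

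**Figure D4:**
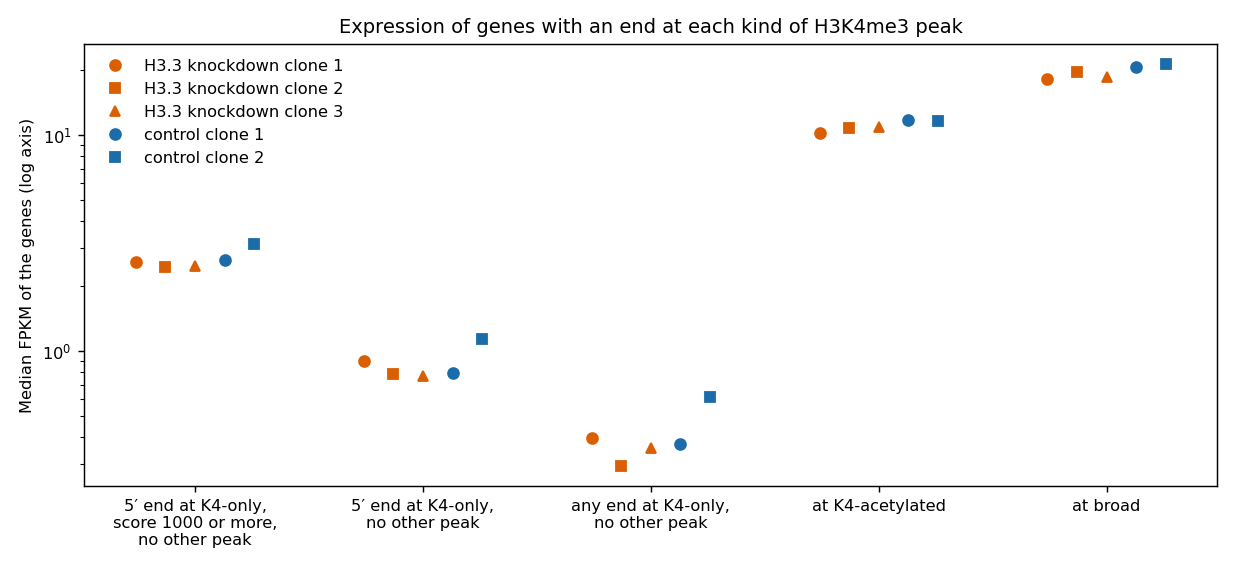
Median FPKM (vertical axis, log scale) of the genes at each kind of H3K4me3 peak (horizontal axis), 1 point per RNA library, for 3 H3.3 knockdown clones (orange) and 2 control clones (blue). Genes at K4-only peaks lie below genes at K4-acetylated and broad peaks in every clone. Knockdown and control points overlap in the 2 wider sets of genes at K4-only peaks, and the 3 knockdown clones lie below both controls in each other set. At score 1000 or more the medians are 2.47 to 2.60 FPKM against 2.65 and 3.14 FPKM. They are 10.2 to 10.9 FPKM against 11.8 and 11.7 FPKM at K4-acetylated peaks, and 18.1 to 19.6 FPKM against 20.7 and 21.3 FPKM at broad peaks.

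The knockdown was checked on its 2 target genes before any gene at a K4-only peak. H3f3a was at 71.8, 35.6 and 5.05 FPKM in knockdown clones 1, 2 and 3, against 128.3 and 143.5 FPKM in the control clones. H3f3b was at 144.4, 104.3 and 51.7 FPKM in the knockdown clones, against 249.4 and 237.1 FPKM in the control clones. Both transcripts were below both controls in every knockdown clone, most in clone 3 and least in clone 1, and neither passed the test across all genes (limma, adjusted p = 0.516 for H3f3a and 0.469 for H3f3b). The lines expressed fibroblast markers, and markers of other lineages at far lower sums. The 16 fibroblast markers summed to 8322 to 9940 FPKM in knockdown clones and 6701 to 7484 FPKM in control clones, with 14 at 1 FPKM or more. The 12 epithelial markers summed to 0.703 to 6.59 FPKM in knockdown clones and 2.45 to 2.90 FPKM in control clones. The 13 neural markers summed to 0.837 to 2.1 FPKM in knockdown clones and 0.993 to 1.48 FPKM in control clones. The 9 endothelial markers summed to 5.13 to 13.8 FPKM in knockdown clones and 10.0 to 15.2 FPKM in control clones, with 3 at 1 FPKM or more, and the 12 haematopoietic markers to 24.3 to 32.95 FPKM in knockdown clones and 20.0 to 31.4 FPKM in control clones, with 5 at 1 FPKM or more. The 6 skeletal muscle markers measured summed to 26.5 to 45.5 FPKM in knockdown clones and 45.9 to 55.8 FPKM in control clones, with 2 at 1 FPKM or more, the one list of other lineages whose sums did not overlap between the groups, and its part in the differences below was not tested.

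No gene at a K4-only peak with a mean of at least 1 FPKM passed the test for a difference between knockdown and control clones. Of the 1747 genes 867 had a mean of at least 1 FPKM and were tested, and 0 had a limma adjusted p under 0.05, against 4 of 11728 genes tested in all (0.0341%). At an unadjusted p under 0.05, 39 were higher in knockdown clones (4.50%, against 3.5% of all genes tested) and 61 were lower (7.04%, against 6.31%). All 3 knockdown clones lay above both controls for 104 genes (12.0%, against 11.4% of all) and below both for 168 (19.4%, against 21.2%). Each of these shares was near that of all genes. Without the limit of 1 FPKM, 9 genes at K4-only peaks had a limma adjusted p under 0.05, among them Megf10, against 56 of all 23951 genes (0.234%). The median log2 difference, on the log2(FPKM + 1) scale that understates changes of low genes, was -0.06 for genes at K4-only peaks, -0.11 for genes at K4-acetylated peaks and -0.10 for all genes tested.

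The genes with the smallest p in each direction are named with their values, and none passed the adjusted test. Sik2, which encodes a salt-inducible kinase, was at 11.6, 8.68 and 9.54 FPKM in the knockdown clones and 3.33 and 4.38 FPKM in the control clones. Anapc13, which encodes a subunit of the anaphase-promoting complex, was at 200.5, 122.7 and 155.5 FPKM in knockdown clones and 60.6 and 53.7 FPKM in control clones. Nxt2, an mRNA export factor gene, was at 4.45, 5.87 and 6.03 FPKM in knockdown clones, against 1.16 and 2.05 FPKM in control clones. Their log2 differences were 1.17 (SE 0.21), 1.44 (SE 0.26) and 1.32 (SE 0.25), each with a limma adjusted p of 0.401. Tmem109 and Glt8d2, a glycosyltransferase gene, followed with log2 differences of 1.36 (SE 0.27) and 1.52 (SE 0.32). In all 5 the groups did not overlap, and the K4-only peaks of Sik2, Anapc13, Nxt2 and Glt8d2 carried RBBP4 in untransduced cells. Sik2, Anapc13 and Tmem109 also had an acetylated or broad H3K4me3 peak within 1000 bp of an end. For Anapc13, Tmem109 and Glt8d2 the end at the K4-only peak was not a known 5′ end. Of all 867 tested genes at K4-only peaks 331 were at a K4-only peak with RBBP4, among them 14 of the 39 higher and 19 of the 61 lower at an unadjusted p under 0.05.

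Among the 5 genes on the lower side, Megf10, an engulfment receptor gene, was at 0.00491, 0.0102 and 0.0193 FPKM in the knockdown clones, against 4.78 and 4.72 FPKM in the control clones (log2 difference -2.51, SE 0.22, limma adjusted p = 0.115). Akr1c18, a hydroxysteroid dehydrogenase gene, was listed at 0 in knockdown clone 1 and at 0.0767 and 0.146 FPKM in clones 2 and 3, against 8.55 and 18.9 FPKM in control clones (-3.69, SE 0.36, adjusted p = 0.139). Both were nearly silent in every knockdown clone and expressed in both controls. Cd97, an adhesion receptor gene, was at 0.13, 0.278 and 0.742 FPKM in knockdown clones, against 5.31 and 5.14 FPKM in control clones. Brinp1 was at 1.97, 2.05 and 1.97 FPKM in knockdown clones, against 8.14 and 6.49 FPKM in control clones (-1.46, SE 0.19, adjusted p = 0.248). Ctla2b, whose reads may be shared with its close relative Ctla2a, was at 0, 0.135 and 0.375 FPKM in knockdown clones, against 2.90 and 3.13 FPKM in control clones. Of these 5 sites only that of Brinp1 carried NuRD subunits in untransduced cells, RBBP4 and HDAC2, and that of Akr1c18 carried HA-H3.3 in both replicates. These 5 genes had no other H3K4me3 peak at an end, and for Megf10 and Cd97 the end at the K4-only peak was not a known 5′ end.

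**Figure D5:**
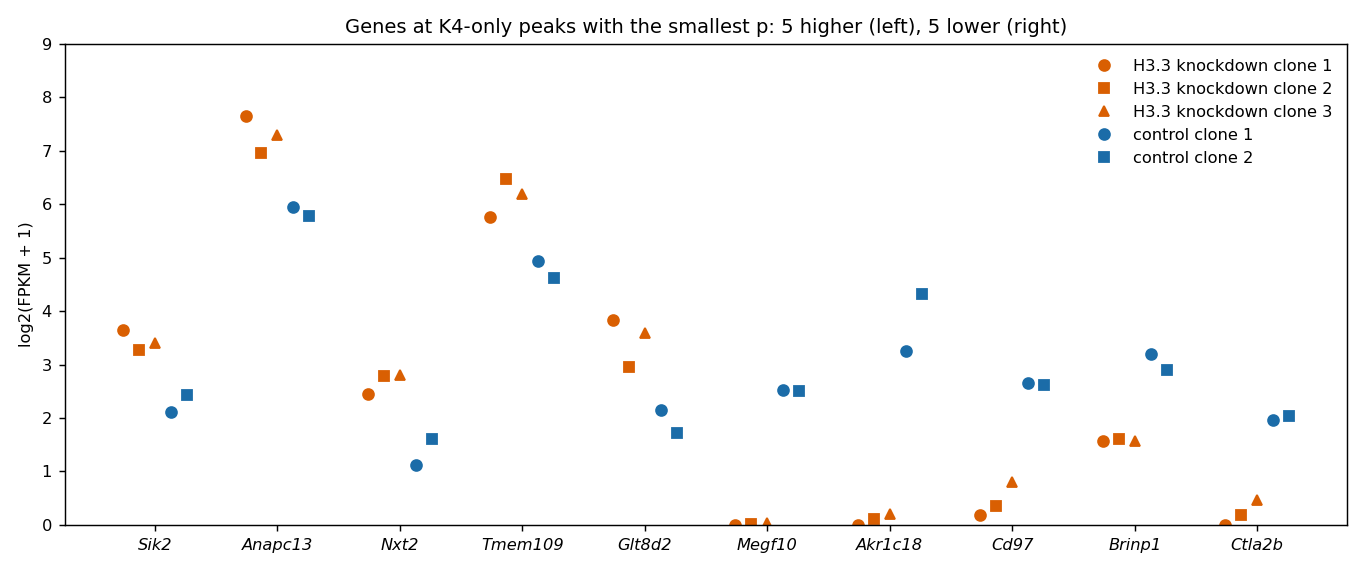
Expression as log2(FPKM + 1) (vertical axis) of the 5 genes at K4-only peaks with the smallest p among those higher in H3.3 knockdown and the 5 among those lower (horizontal axis), 1 point per clone, 3 knockdown clones (orange) and 2 control clones (blue). The groups do not overlap for these 10 genes, and none has an adjusted p under 0.05.

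Genes at K4-only peaks bound by RBBP4 in the knockdown and control lists were read in the same fit. Pmp22 was at 113.1, 49.5 and 40.5 FPKM in knockdown clones and 19.6 and 24.9 FPKM in control clones (log2 difference 1.43, SE 0.47, limma adjusted p = 0.470), with all 3 knockdown clones above both controls. Fam64a was at 24.1, 51.0 and 44.9 FPKM in knockdown clones, against 68.2 and 40.9 FPKM in control clones, and the groups overlapped. Tmem158 was at 7.70, 7.53 and 9.01 FPKM in knockdown clones, against 14.0 and 9.51 FPKM in control clones, with every knockdown clone below both controls (-0.47, SE 0.22, adjusted p = 0.520). Over the 38 tested genes at K4-only peaks with RBBP4 in knockdown cells the median log2 difference was -0.07, and over the 50 with RBBP4 in control cells -0.04, both near the -0.10 of all genes.

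Gene families differed in how often their members stood at a K4-only peak and at no other H3K4me3 peak, which held for 1370 of 23951 genes (5.72%). Among genes of developmental transcription factors 15 of 166 did so (9.04%), and among Hox genes 9 of 39 (23.1%). Isl2 had the highest score of the transcription factors, 2939.59, and was at 2.66, 1.73 and 1.59 FPKM in knockdown clones and 1.87 and 1.41 FPKM in control clones. Pitx3 and Nkx2-2, which act in midbrain and spinal cord neurons, had scores of 1271.63 and 1221.99 with Pitx3 listed at 0 in both controls and Nkx2-2 at 0 in all 5 clones. For Pitx3 and Nkx2-2 the end at the K4-only peak was not a known 5′ end, and these counts take either end of a gene. The 15 had a median of 0.0452 FPKM in controls, and 5 were at 1 FPKM or more. Hoxc4 had the highest score among Hox genes, 1772.8, at 3.49, 2.92 and 3.3 FPKM in knockdown clones and 2.57 and 3.76 FPKM in control clones, and Hoxb8 scored 900.05 at under 1 FPKM in 4 of the 5 clones.

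The other lists held from 0 to 6 such genes each. Of 96 genes of voltage-gated channels and neurotransmitter receptors 6 stood at a K4-only peak alone (6.25%), led by the calcium channel gene Cacna1g with a score of 3100. Kcnd1, a potassium channel gene, was at 5.90, 5.54 and 4.24 FPKM in knockdown clones and 1.75 and 4.06 FPKM in control clones, without passing the test (limma adjusted p = 0.517). Of 39 FGF and BMP ligand genes 2 did so, Fgf2 and Bmp5. Fgf2, a fibroblast mitogen, had a score of 2961.17 and was at 0.219, 0.0504 and 1.66 FPKM in knockdown clones and 3.21 and 1.5 FPKM in control clones, so that the groups overlapped. Of 12 haematopoietic markers 4 did so (33.3%, the highest share of the lists), with scores of 922.68 for Ikzf1, 311.28 for Lyz2, 74.25 for Spi1 and 56.92 for Ptprc. Lyz2 was the 1 gene of these above 1 FPKM in controls. Of 13 neural markers 2 did so (15.4%), Tubb3 with a score of 377.95 and Nes with 53.38. The scores of Spi1, Ptprc and Nes were near the lowest of K4-only peaks, 50.01. For Cacna1g, Kcnd1, Ikzf1, Spi1 and Tubb3 the end at the K4-only peak was not a known 5′ end.

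Housekeeping genes and fibroblast markers stood almost wholly at other peaks. None of 15 NuRD subunit genes, 40 genes of the mitochondrial respiratory chain, 46 cytosolic ribosomal protein genes or 16 fibroblast markers stood at a K4-only peak alone, and of 40 cell cycle and replication genes 1 did, Ccnb2. Its K4-only peak scored 1103.35 and carried RBBP4, and the gene was at 16.5, 36.7 and 24.1 FPKM in knockdown clones and 32.4 and 22.8 FPKM in control clones, with overlapping groups. Gins2, of the replicative helicase, had a K4-only peak of score 1528.39 beside another H3K4me3 peak and was at 10.7, 23.9 and 26.3 FPKM in knockdown clones, against 49.9 and 37.5 FPKM in control clones, below both controls in every knockdown clone (log2 difference -1.15, SE 0.42, limma adjusted p = 0.491). The end of Gins2 at its K4-only peak was not a known 5′ end. The 40 tested genes of the cell cycle list had a median log2 difference of -0.68, against -0.10 over all genes tested.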

How the data were processed

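ChIP-seq and poly(A) RNA-seq of mouse NIH/3T3 Tet-On 3G cells were used. Files refer to mm9, and Bowtie, TopHat, Cufflinks, Cuffdiff, MACS2 and bedtools are named in the submitters' processing notes without versions or roles. Each peak list holds a deposited score per peak, probably minus 10 times the log10 of a p-value by its range, and only the order within a list was used. The sequential list, per the file headers, was called by MACS2 against an IgG library and gives pileup signal, fold enrichment and -log10 p and q-values, of which only positions were used. The authors deposited levels as log2(RPKM + 1) per region and, in a second table, the fraction of each region covered by peaks of each library. Deposited FPKM values per gene came in 1 file per clone. Whether reads were assigned by strand is not given in the sources used here. Input libraries were not used here.

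From these files the peaks were classed by overlap of at least 1 bp. A peak of a subunit or of HA-H3.3 counted when the deposited fraction was above 0 in a region that overlaps the H3K4me3 peak, and levels came from the region of greatest overlap. Reads per region, recovered from RPKM and length, were whole numbers within 0.05 for 100% of values checked, with library sizes of 6.62 to 24.1 M reads. Shares have 95% exact binomial intervals and named levels 95% exact Poisson intervals, and both cover counting error only, since PCR reads without molecular identifiers are not independent molecules. Genes were assigned to a peak by an annotated end within 1000 bp. RNA was tested with limma 3.58.1 (R 4.3.3, trend, two-sided, Benjamini-Hochberg adjustment over all genes tested) on log2(FPKM + 1), for genes with a mean of at least 1 FPKM, in 3 knockdown and 2 control clones. The fit was tested on simulated data. The labels call the libraries separate clones. RefSeq promoters on GRCm38.p6, 1 per gene, matched 17877 of 23951 gene symbols. Python 3.11.15, pandas 2.3.3, numpy 2.4.6, scipy 1.17.1 and matplotlib 3.10.9 did the rest.

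The K4-only peaks and the gene lists were chosen with earlier results of these data known, so no count over them is independent evidence. Named regions are those of highest score or level in each library and those with a sequential peak, and the 9 in all 4 lists of RBBP4 and MTA1 were singled out after their values were seen. Named genes are the 5 of smallest p in each direction, up to 3 per gene list by score, and the genes of named regions. Alternatives varied the overlap with and the score and extent of acetylation peaks, the H3K4me3 and binding scores, matching of regions, low-value filter, normalization, pseudocount, distance to genes, CG ratio and single libraries.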

Additional observations from a re-analysis of the deposited data

How the results depend on the processing

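The overall level differences and the median log2 difference of genes at K4-only peaks kept their sign under the alternatives run on them. Of 98 alternatives, 46 left a value within a set tolerance, 43 moved it beyond, 8 gave a higher count and 1 a lower count. The tolerance was the exact interval for shares, 1.5 times for counts and the SD over knockdown clones (0.043) for the median log2 difference. For level differences it was the SD of the HA-H3.3 difference over its 2 replicates, 0.0040. Subunits with 1 library have no error of their own. Taking only H3K4me3 peaks of score 100 or more left 11005 K4-only peaks, with RBBP4 at 0.763% in knockdown and 1.16% in control cells, MTA1 at 0.518% in control cells, and 53.3% of genes at 1 FPKM or more. Taking only binding peaks of score 100 or more gave RBBP4 at 0.145% in knockdown and 0.301% in control cells, and MTA1 at 0.0558% in knockdown and 0.0502% in control cells. The log2 level differences, K4-only minus K4-acetylated, were under 4 alternatives (overlap-weighted regions, regions with at least 50% of their length inside the peak, peaks within the K4-only quartiles of score 75.4 and 268, and K4-only peaks over 1000 bp from acetylation, the last added after seeing the data): RBBP4 -0.37, -0.40, -0.23 and -0.40, HDAC2 -0.38, -0.41, -0.19 and -0.40, HDAC1 -0.31, -0.34, -0.14 and -0.33, CHD4 -0.18, -0.20, -0.13 and -0.20, MBD2/3 -0.19, -0.21, -0.12 and -0.21, and HA-H3.3 -0.048, -0.10, -0.41 and -0.10. MTA1 gave -0.16 with weighted regions, -0.13 within the quartiles and -0.17 away from acetylation. With a single HA-H3.3 replicate left the difference was -0.08 in each.

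Without the low-value filter limma called 56 genes, 9 of them at K4-only peaks (6030469F06Rik, Casp1, Ccdc60, Gm11992, Hist1h1t, Ly6d, Megf10, Serpina12 and Stox1). Leaving out 1 clone at a time gave 5 to 36 genes in all and 0 to 2 at K4-only peaks: Akr1c18 and Cx3cl1 without control clone 1, and Oaz1-ps without knockdown clone 2. The median difference of genes at K4-only peaks was -0.0045 without the filter, -0.0052 after quantile normalization, and from -0.12 to -0.0017 with 1 clone left out, and the share at 1 FPKM or more was 46.4% to 50.8%. Promoters with a CG ratio of at least 0.75 made up 28.4%, and a distance of 5000 bp gave 47.7%. Clone numbers name separate clones and share only a number: with the clone number as a block 0 genes passed limma (504 at an unadjusted p under 0.05, 63 of them at K4-only peaks), and same-numbered clones correlated at -0.25 and -0.095. Over all deposited regions the median was 7 to 12 reads per subunit library, and the part of depth in the shares at weak peaks was not tested.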

Other observations

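K4-only peaks on the X chromosome differed from the others in score and in the genes beside them. Of 718 X-linked H3K4me3 peaks under 4000 bp, 440 were K4-only (61.3%), against 59.1% of 29608 autosomal peaks. Among peaks of score 1000 or more the share was 18.5% of 319 on the X chromosome (95% exact interval 14.4% to 23.2%), against 7.68% of 9557 on autosomes (7.15% to 8.23%). The X chromosome held 80 H3K27ac peaks and 323 H3K9ac peaks, and autosomes held 26549 and 16170, so the smaller number of acetylation peaks on the X chromosome moves with this share, and its part in it was not tested. Of the X-linked K4-only peaks 25.9% lay at a gene end, against 9.58% over all K4-only peaks, and their 113 genes had a median of 5.41 FPKM in control clones with 76.1% at 1 FPKM or more. Of these genes 87 were tested for knockdown against control, with a median log2 difference of 0.07, 9 higher and 2 lower at an unadjusted limma p under 0.05, against a median of -0.10 and shares of 3.5% higher and 6.31% lower over all genes tested.

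Some K4-only peaks lay at the most highly expressed genes, beside a second, acetylated or broad H3K4me3 peak. Among these were Hspa8, a constitutive chaperone gene, and Rpl4, Rpl36 and S100a6. Rpl36, which encodes a protein of the large ribosomal subunit, was at 2185, 1859 and 1944 FPKM in knockdown clones and 1189 and 922.8 FPKM in control clones, without overlap (log2 difference 0.93, SE 0.20, limma adjusted p = 0.417). Reads of ribosomal protein genes can be shared with their processed pseudogenes, so these values are uncertain. The K4-only peaks beside these 4 genes scored from 78.37 to 686.61, and each carried an HA-H3.3 peak in at least 1 replicate.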
